A study of Mus musculus with 36 samples.

Results

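Ltf, Camp, Ngp, Lcn2, Chil3, S100a8, S100a9, Retnlg, Ly6g and Itgam are 10 mouse genes grouped here as genes of secondary granules and of mature neutrophils. They were chosen by name and matched on the gene symbol in a table of read counts from mouse knee joint tissue. All 10 were found among the 55291 genes of the table, and all 10 were among the 13823 genes with enough counts to be tested. The knees were taken 24 h after the anterior cruciate ligament (ACL), which holds the knee joint stable, was injured, or after a sham procedure. The study asked what blocking protein kinase C (PKC), a group of kinases activated by lipids, and its signalling to the Hippo pathway does early in post-traumatic osteoarthritis. The 3 groups were mice with ACL injury given a PKC inhibitor, mice with ACL injury given saline as vehicle, and sham mice with no ACL injury, with 3 libraries each. They are called inhibitor, vehicle and sham here. The inhibitor, its dose and the strain, sex and age of the mice are not stated in the labels, and nothing there says that the libraries of a group came from separate animals, so p-values measure the spread between these libraries only.

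Neutrophils are short-lived phagocytes that are made in the bone marrow and enter injured tissue from blood. As they mature they fill their granules in waves. Primary granule genes such as Mpo and Elane are transcribed first, then secondary granule genes such as Ltf, Camp and Ngp, and then tertiary granule genes such as Mmp9. Transcription of most granule genes ends before a neutrophil leaves the marrow. S100a8 and S100a9, which encode the subunits of the cytosolic calcium-binding protein calprotectin, and Retnlg remain abundant in mature cells.

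The libraries held 124 to 202 M counts in total, but 7SL RNA, a non-coding RNA of the signal recognition particle, took 91.2% to 98.2% of them. The share was 91.5% and 91.2% in inhibitor libraries 1 and 2, which stand apart from the other 7 libraries at 96.7% or more. Outside 7SL and the small nucleolar RNA U3, 2.32 to 8.32 M counts were left, with the most in inhibitor 2. The 10 neutrophil genes took 0.245%, 0.597% and 0.254% of these in inhibitor libraries 1 to 3, 0.288%, 0.202% and 0.292% in vehicle libraries and 0.362%, 0.373% and 0.322% in sham libraries. Of markers of the labelled joint tissue, 5 of 6 cartilage, 6 of 6 osteoblast and 7 of 7 fibroblast genes had enough counts to be tested. So had markers of tissues around the joint, with 10 of 10 skeletal muscle and 5 of 5 keratinocyte genes, and of blood-forming lineages, with 7 of 7 primary granule, 9 of 10 erythroid and 7 of 9 B lineage genes. Of the 10 erythroid genes only these 9 were found by symbol.

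Ltf, Camp and Ngp, genes of secondary granules, were lower after injury. In vehicle knees against sham knees Ltf alone of the 3 passed, and its call ended without any 1 vehicle or sham library. Ltf, Camp and Ngp all fell in inhibitor knees against sham knees. Between inhibitor and vehicle knees no member passed the test. Lcn2, Chil3, Ly6g and Itgam and the genes abundant in mature cells, S100a8, S100a9 and Retnlg, passed in none of the 3 comparisons. Whether the change of these genes differed from that of Ltf, Camp and Ngp was not tested. In bulk tissue fewer cells of a type and less RNA per cell cannot be told apart. Values are normalised counts, which are counts divided by the effective size of the library and multiplied by the mean effective size. The scaling factors (TMM) in these sizes ran from 0.633 in vehicle 1 to 3.64 in inhibitor 2. Overlap between groups is given on this scale and can differ by shares of the counts outside 7SL and U3. By such shares Camp, Ngp and Ly6g in inhibitor 2 lay above sham 1. S100a8 and S100a9 in vehicle 1 lay above sham 3, and Ltf in inhibitor 2 lay above vehicle 1. Each test is edgeR's quasi-likelihood F test on all 9 libraries, adjusted over all 13823 tested genes and called at a threshold of 0.05. Since every comparison uses the same 9 libraries, and any 2 of them share a group, they are not independent.

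**Figure D1:**
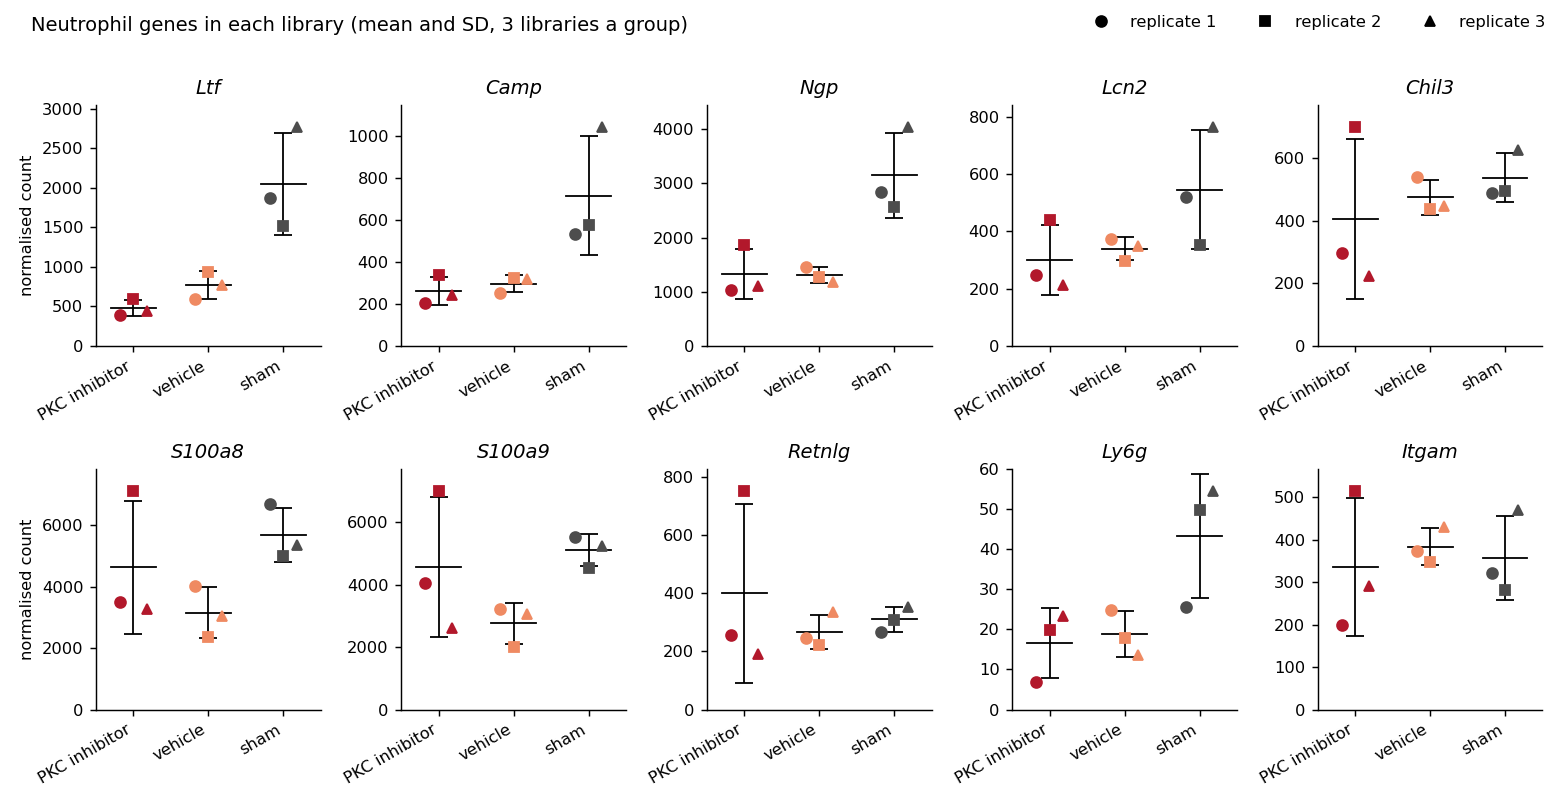
Normalised counts (vertical axes, from 0) of the 10 genes in every library, with the mean (long line) and SD (whiskers) of 3 libraries a group. For Ltf the 3 groups do not overlap, and the 3 sham libraries lie at 1516 or above for Ltf and 2563 or above for Ngp, over every library of injured knees.

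Ltf encodes lactoferrin, an iron-binding antimicrobial protein of secondary granules. It lies on mm10 chromosome 9 from 111019271 to 111042767, on the plus strand. Ltf had 397, 591 and 440 normalised counts in inhibitor libraries, 593, 939 and 776 in vehicle libraries and 1874, 1516 and 2770 in sham libraries. All 3 groups were separate, although the gap between the highest inhibitor and the lowest vehicle library was narrow. Means were 476 ± 102 in inhibitor, 769 ± 173 in vehicle and 2053 ± 646 in sham knees (SD, n = 3 each). Ltf was 4.31-fold lower in inhibitor than in sham knees (log2 fold change −2.11, SE 0.26, adjusted p = 0.00216). It was 2.67-fold lower in vehicle than in sham knees (log2 fold change −1.41, SE 0.26, adjusted p = 0.0288). The difference between inhibitor and vehicle knees, −0.69 with an SE of 0.25 on the log2 scale, had an unadjusted p of 0.0153 and did not pass after adjustment over all genes (adjusted p = 0.237).

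Camp encodes the precursor of the antimicrobial peptide CRAMP, the mouse cathelicidin, which is stored in secondary granules. The gene is on the minus strand of chromosome 9, from 109847379 to 109849617. Camp had 207, 338 and 245 normalised counts in inhibitor libraries, 251, 322 and 321 in vehicle libraries and 534, 576 and 1045 in sham libraries. On normalised counts, injured knees with and without inhibitor overlapped, and both lay below every sham library. Of the counts outside 7SL and U3, Camp had 868 of 8.32 M in inhibitor 2. It had 459 of 4.53 M in sham 1, a lower share. Camp fell in inhibitor knees against sham knees, by 1.44 on the log2 scale (SE 0.27, adjusted p = 0.0105). In vehicle knees against sham knees the log2 fold change was −1.26 with an SE of 0.27, which did not pass (adjusted p = 0.0694).

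Ngp encodes neutrophilic granule protein, a cystatin-like protein of secondary granules. The gene is on the plus strand of chromosome 9, from 110419747 to 110423012. Ngp had 1029, 1867 and 1102 normalised counts in inhibitor libraries, 1461, 1280 and 1184 in vehicle libraries and 2836, 2563 and 4039 in sham libraries. The order was like that of Camp, with every library of injured knees below every sham library on this scale and inhibitor 2 the highest of the injured. Of the counts outside 7SL and U3, Ngp had 4792 of 8.32 M in inhibitor 2. It had 2439 of 4.53 M in sham 1, a lower share. Ngp fell in inhibitor knees against sham knees (log2 fold change −1.24, SE 0.26, adjusted p = 0.0166). In vehicle knees against sham knees its log2 fold change was −1.27 (SE 0.26) with an adjusted p of 0.0548. The inhibitor and vehicle means were close, at 1333 ± 464 and 1308 ± 140, which differed by 0.03 on the log2 scale (SE 0.25, adjusted p = 0.976).

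The call of Ltf in vehicle against sham knees ended without any 1 of the 3 vehicle or 3 sham libraries, with adjusted p between 0.0616 and 0.249 and a log2 fold change that stayed between −1.59 and −1.14 over all alternatives. Without inhibitor 2, Camp (adjusted p = 0.0254) and Ngp (adjusted p = 0.0117) passed in that comparison too, as they did without inhibitor 1. In inhibitor against sham knees Ltf and Camp passed under each of 17 alternatives, while Ngp did not pass without sham 1 (adjusted p = 0.0511) or sham 3 (adjusted p = 0.0688), or with the vehicle libraries left out (adjusted p = 0.06495). With inhibitor 1 and 2, the libraries of low 7SL share, both left out, the log2 fold changes against sham knees were −2.21 for Ltf (adjusted p = 0.00104), −1.53 for Camp (adjusted p = 0.0255) and −1.50 for Ngp (adjusted p = 0.0184).

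To show what lies before these genes, promoter windows of Ltf, Camp, Ngp, S100a8 and S100a9 are printed 5′ to 3′ on the strand of the gene, from 250 bases before the start site to 50 bases from it. They come from RefSeq on GRCm38.p6, and capitals mark matches to TTGCNNAA, the core of sites bound by C/EBP factors, which drive granule genes, on either strand (TTNNGCAA on the other). The windows are chr9:111019042-111019341 (plus strand, Ltf), chr9:109849407-109849706 (minus strand, Camp), chr9:110419558-110419857 (plus strand, Ngp), chr3:90668821-90669120 (plus strand, S100a8) and chr3:90695672-90695971 (minus strand, S100a9).
Ltf: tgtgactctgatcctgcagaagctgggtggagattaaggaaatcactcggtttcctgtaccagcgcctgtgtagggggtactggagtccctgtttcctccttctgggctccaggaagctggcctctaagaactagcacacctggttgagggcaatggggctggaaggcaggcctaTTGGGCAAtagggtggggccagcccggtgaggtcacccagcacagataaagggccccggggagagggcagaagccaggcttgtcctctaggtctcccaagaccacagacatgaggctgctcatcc
Camp: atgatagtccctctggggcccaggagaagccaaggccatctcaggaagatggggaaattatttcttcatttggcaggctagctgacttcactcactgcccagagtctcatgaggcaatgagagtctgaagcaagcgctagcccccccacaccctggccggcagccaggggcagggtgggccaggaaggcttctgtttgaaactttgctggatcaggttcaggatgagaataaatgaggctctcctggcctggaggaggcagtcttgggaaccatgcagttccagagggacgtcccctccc
Ngp: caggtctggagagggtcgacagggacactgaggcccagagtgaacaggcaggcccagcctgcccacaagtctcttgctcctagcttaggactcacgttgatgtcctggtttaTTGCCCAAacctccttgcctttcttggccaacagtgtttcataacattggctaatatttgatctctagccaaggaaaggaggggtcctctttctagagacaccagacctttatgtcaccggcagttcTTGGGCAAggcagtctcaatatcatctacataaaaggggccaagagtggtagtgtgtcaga
S100a8: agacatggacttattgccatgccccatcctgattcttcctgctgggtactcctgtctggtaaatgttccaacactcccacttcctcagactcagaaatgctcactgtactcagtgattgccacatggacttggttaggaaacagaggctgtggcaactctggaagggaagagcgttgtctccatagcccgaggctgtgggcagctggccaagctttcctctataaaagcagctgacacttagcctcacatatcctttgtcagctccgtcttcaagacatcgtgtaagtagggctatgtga
S100a9: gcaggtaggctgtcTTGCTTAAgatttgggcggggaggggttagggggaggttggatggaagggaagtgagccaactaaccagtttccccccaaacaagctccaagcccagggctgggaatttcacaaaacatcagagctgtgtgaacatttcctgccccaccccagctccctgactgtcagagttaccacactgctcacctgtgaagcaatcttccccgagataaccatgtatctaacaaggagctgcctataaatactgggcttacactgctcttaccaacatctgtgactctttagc
The matches lie at position −75 from the start site in Ltf, at −138 and −11 in Ngp and at −236 in S100a9. No window of Camp or S100a8 holds these letters. Of the 10 genes, all of which were matched in the RefSeq table, 6 hold a C/EBP match in any window (Ltf, Ngp, Lcn2, S100a9, Retnlg and Ly6g). Of the 32851 promoter windows of that length, 10.8% hold one. The windows belong to 27025 genes, so here and below a count of genes stands beside a share of windows, which are unlike units. GAGGAA, a core bound by PU.1 and other ETS factors, is in the windows of 5 of the 10 genes and in 28.3% of all windows. TGNGGT, the core of RUNX sites, is in 3 of the 10 and in 45.8% of all windows. TATAAA, the letters of the TATA box, is in 4 of the 10 and in 13.6% of all windows. These letters lie at −30 in S100a8, −3 in Chil3, 1 in S100a9 and −99 or −167 in Ly6g, depending on its start site. Whether they work as a TATA box was not tested. Each motif was searched on both strands, and no match overlapped one of another motif in these windows. The matches describe letters only, and genes with and without a C/EBP match are found both among those that fell and among those that did not.

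Lcn2 encodes lipocalin 2, a protein of secondary granules that binds bacterial siderophores and that other cell types make in inflammation. Its place is chromosome 2 from 32384633 to 32388252, on the minus strand. Lcn2 had 249, 440 and 212 normalised counts in inhibitor libraries, 374, 297 and 348 in vehicle libraries and 521, 351 and 764 in sham libraries, so the groups overlapped. Its log2 fold change was −0.85 in inhibitor against sham knees (SE 0.30, adjusted p = 0.149) and −0.68 in vehicle against sham knees (SE 0.31, adjusted p = 0.579). Without inhibitor 2 the first of these was −1.24 and passed (adjusted p = 0.0365).

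Chil3 encodes Ym1, a chitinase-like protein of neutrophil precursors and of some macrophages. It lies on chromosome 3 from 106147554 to 106167564, on the minus strand, and its close paralogue Chil4 had 3 to 29 counts per library. Chil3 had 296, 700 and 225 normalised counts in inhibitor libraries, 540, 439 and 449 in vehicle libraries and 491, 496 and 628 in sham libraries. Inhibitor 2 was above every other library, and inhibitor 1 and 3 were below every other library. The log2 fold change was −0.39 in inhibitor against sham knees (adjusted p = 0.607), and without inhibitor 2 it was −1.04 and passed (adjusted p = 0.0298). In vehicle against sham knees it was −0.18 (adjusted p = 0.942).

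S100a8 and S100a9 had the highest levels of the 10 genes. They lie beside each other on chromosome 3, S100a8 from 90668978 to 90670035 on the plus strand and S100a9 from 90692632 to 90695721 on the minus strand. S100a8 had 3498, 7118 and 3258 normalised counts in inhibitor libraries, 4014, 2368 and 3043 in vehicle libraries and 6687, 5007 and 5363 in sham libraries. S100a9 had 4054, 7010 and 2617 in inhibitor libraries, 3222, 2012 and 3065 in vehicle libraries and 5536, 4537 and 5254 in sham libraries. Every vehicle library lay below every sham library for both genes, while the inhibitor libraries spanned both groups, with inhibitor 2 the highest of all 9 libraries.

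The log2 fold change in inhibitor against vehicle knees was 0.56 for S100a8 (SE 0.31, adjusted p = 0.464) and 0.72 for S100a9 (SE 0.32, unadjusted p = 0.0376, adjusted p = 0.34). Without inhibitor 2 these were 0.09 for S100a8 (adjusted p = 0.931) and 0.25 for S100a9 (adjusted p = 0.751), so most of the difference lay in 1 library. In inhibitor against sham knees they were −0.30 for S100a8 (adjusted p = 0.667) and −0.16 for S100a9 (adjusted p = 0.832). In vehicle against sham knees they were −0.86 for S100a8 (SE 0.31, unadjusted p = 0.01475, adjusted p = 0.384) and −0.89 for S100a9 (SE 0.32, unadjusted p = 0.0137, adjusted p = 0.383).

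Retnlg encodes resistin-like gamma, a small secreted protein that is abundant in mature mouse neutrophils. Its place is chromosome 16 from 48872621 to 48874496, on the plus strand. Retnlg had 257, 753 and 190 normalised counts in inhibitor libraries, 248, 221 and 334 in vehicle libraries and 267, 309 and 353 in sham libraries. Inhibitor 2 was above all others, and the rest overlapped. The log2 fold change of Retnlg was 0.59 in inhibitor against vehicle knees (SE 0.46, adjusted p = 0.622), 0.38 in inhibitor against sham knees (adjusted p = 0.717) and −0.21 in vehicle against sham knees (adjusted p = 0.956). Without inhibitor 2 the first 2 turned round, to −0.27 (adjusted p = 0.66) and −0.46 (adjusted p = 0.376).

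Ly6g encodes the surface protein by which mouse neutrophils are commonly sorted. It lies on chromosome 15 from 75155240 to 75159126, on the plus strand, and had only 9 to 51 raw counts per library. Ly6g had 6.75, 19.9 and 23.4 normalised counts in inhibitor libraries, 24.9, 17.8 and 13.6 in vehicle libraries and 25.6, 49.8 and 54.7 in sham libraries. Every library of injured knees was below every sham library, by a narrow margin against sham 1. The log2 fold change was −1.38 in inhibitor against sham knees (SE 0.49, adjusted p = 0.14) and −1.20 in vehicle against sham knees (SE 0.51, adjusted p = 0.514), and neither passed. With the mean of the muscle list as a covariate the first was −1.76 and passed (adjusted p = 0.0492).

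Itgam encodes CD11b, an integrin chain of neutrophils, monocytes and macrophages. It lies on chromosome 7 from 128062640 to 128118491, on the plus strand. Its span overlaps that of the gene model Gm49368 on the same strand, which had 185 to 1153 counts per library. Reads in both may be counted for each, so the values of Itgam are uncertain. Itgam had 200, 515 and 291 normalised counts in inhibitor libraries, 372, 348 and 431 in vehicle libraries and 321, 281 and 470 in sham libraries, and all groups overlapped. Its log2 fold changes were −0.19 in inhibitor against vehicle knees, −0.08 in inhibitor against sham knees and 0.11 in vehicle against sham knees, with adjusted p of 0.832, 0.919 and 0.969.

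**Figure D2:**
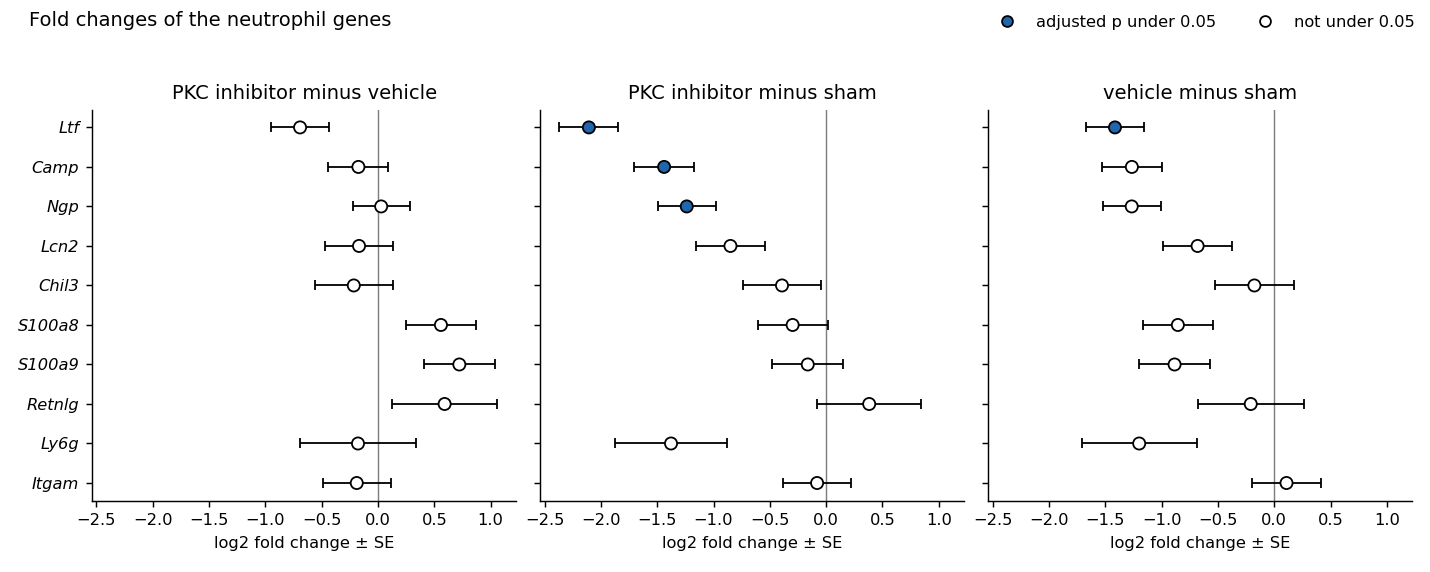
Log2 fold changes with SE (horizontal axes) of the 10 genes in inhibitor against vehicle, inhibitor against sham and vehicle against sham knees, with filled points where the adjusted p was under 0.05. Ltf, Camp and Ngp are filled in inhibitor against sham knees, Ltf alone in vehicle against sham knees, and no gene in inhibitor against vehicle knees.

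Counted over the 10 genes, none passed in inhibitor against vehicle knees, where 0.731% of all genes tested passed. An unadjusted p under 0.05 was found there for 2 of the 10 genes, Ltf and S100a9, and for 13.4% of all genes, and DESeq2 also called none of the 10. The median log2 fold change of the 10 was −0.17, against 0.04 over all genes tested. Of the 10, 6 were negative, as were 46.2% of all genes, and Ltf was the 1 gene whose inhibitor libraries all lay below the vehicle libraries, which held for 10.4% of all genes. In inhibitor against sham knees 3 of 10 passed as lower and none as higher, where 2.68% of all genes passed as lower and 3.95% in either direction. An unadjusted p under 0.05 was found for 5 of the 10 and for 18% of all genes. There 9 of 10 were negative, as were 47.6% of all genes, with a median of −0.62, against 0.03 over all genes. On normalised counts the libraries did not overlap for 4 genes, Ltf, Camp, Ngp and Ly6g, and for 11.6% of all genes in that direction. In vehicle against sham knees 1 of 10 passed as lower, where 0.0217% of all genes did and 0.304% passed in either direction. An unadjusted p under 0.05 was found for 7 of the 10 and for 8.28% of all genes. Of the 10, 9 were negative, as were 51.9% of all genes, with a median of −0.87, against −0.02 over all genes, and 6 genes had every vehicle library below every sham library, against 8.76% of all genes.

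The 10 genes followed different orders over the libraries. Ltf, Camp, Ngp, Lcn2 and Ly6g were highest in sham 3, and Chil3, S100a8, S100a9, Retnlg and Itgam were highest in inhibitor 2. Correlated with the mean of the other 9 genes over the 9 libraries, on standardised log2 CPM, Pearson's r ran from 0.917 for Lcn2 and 0.907 for Ngp to 0.56 for Itgam and 0.555 for Retnlg. These values describe the libraries, which share groups and depth, and have no test. Levels per kilobase of exon in sham knees ranked in the order S100a9 (9788 ± 986), S100a8 (8193 ± 1276), Ngp (2575 ± 643), Camp (947 ± 374), Ltf (595 ± 187), Retnlg (522.5 ± 71.9), Chil3 (329.7 ± 47.7), Lcn2 (208 ± 79.0), Itgam (71.1 ± 19.8) and Ly6g (46.0 ± 16.6), in normalised counts per kilobase (SD, n = 3). The libraries of S100a9 and S100a8 overlapped, as did those of Camp with Ltf, Ltf with Retnlg and Itgam with Ly6g, and no other neighbours in this order overlapped.

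Within a library, ratios of raw counts do not depend on scaling. They were chosen after the values were seen and have no test. The summed counts of S100a8 and S100a9 were 4.63, 5.05 and 3.29 times those of Ltf, Camp and Ngp in inhibitor libraries 1 to 3, 3.14, 1.72 and 2.68 times in the vehicle libraries and 2.33, 2.05 and 1.35 times in the sham libraries. The means were 4.32 ± 0.92 in inhibitor, 2.51 ± 0.72 in vehicle and 1.91 ± 0.50 in sham knees, so the inhibitor libraries lay above all others while vehicle and sham overlapped. Retnlg counts were 0.648, 1.27 and 0.431 times those of Ltf in inhibitor libraries, 0.417, 0.235 and 0.431 in vehicle libraries and 0.143, 0.204 and 0.127 in sham libraries. Every library of injured knees was above every sham library. Ngp counts were 2.59, 3.16 and 2.50 times those of Ltf in inhibitor libraries, 2.46, 1.36 and 1.53 in vehicle libraries and 1.51, 1.69 and 1.46 in sham libraries, and S100a9 against S100a8 overlapped in all groups.

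**Figure D3:**
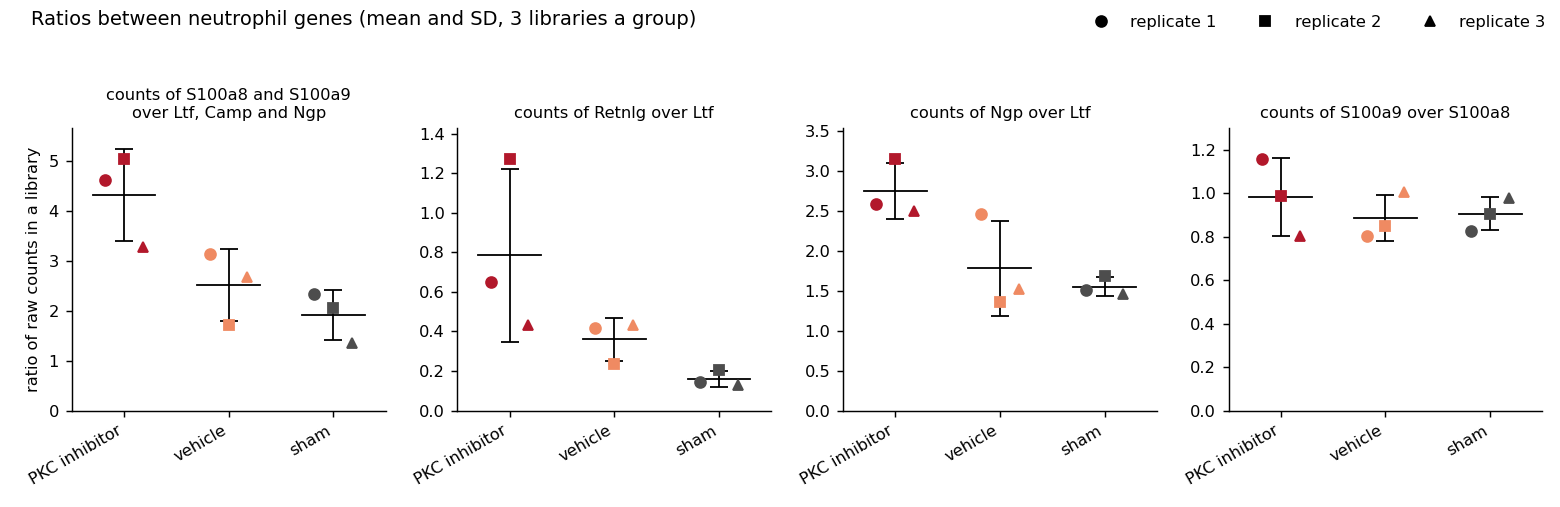
Ratios of raw counts within each library (vertical axes, from 0), with the mean and SD of 3 libraries a group. The ratio of S100a8 and S100a9 to Ltf, Camp and Ngp is 3.29 or more in the inhibitor libraries and 3.14 or less in all others, and the ratio of S100a9 to S100a8 overlaps between groups.

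Genes of the earlier step of granule formation were also lower. Of 7 primary granule genes, 4 fell in inhibitor knees against sham knees, where 2.68% of all genes tested passed as lower. The median log2 fold change over the list was −1.40. Mpo, myeloperoxidase, had 331 ± 36.7 normalised counts in inhibitor and 1078 ± 475 in sham knees (log2 fold change −1.70, adjusted p = 0.00623). The serine proteases Prtn3 (−1.69, adjusted p = 0.00744) and Elane (−1.40, adjusted p = 0.0154) and the ficolin Fcnb (−1.65, adjusted p = 0.0176) fell too. Against vehicle knees none of the 7 passed and the median was −0.76, with Mpo at 331 ± 36.7 in inhibitor and 633 ± 147 in vehicle knees (adjusted p = 0.149) and Fcnb at a log2 fold change of −1.02 (adjusted p = 0.204). In vehicle against sham knees none of 7 passed either, all were negative and the median was −0.76, with Prtn3 at −1.05 (adjusted p = 0.196) and Mpo at −0.76 (adjusted p = 0.385). Of all genes tested, 51.9% were negative there.

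In inhibitor against sham knees 2.68% of all genes tested passed as lower. Of 13 other secondary and tertiary granule genes, 3 fell there and none rose, with a median of −0.53. They were Cd177, a surface protein of neutrophils, at 109 ± 41.6 in inhibitor and 386 ± 129 in sham knees (−1.80, adjusted p = 0.00593), the integrin chain Itgb2l (−1.87, adjusted p = 0.0122), and Mmp9, gelatinase B of tertiary granules, at 493 ± 168 in inhibitor and 1030 ± 330 in sham knees (−1.06, adjusted p = 0.0449). None of the 13 passed in inhibitor against vehicle knees, where the median was −0.34, Chil1 was at −0.97 (adjusted p = 0.299) and Itgb2l at −0.74 (adjusted p = 0.403). None passed in vehicle against sham knees, where the median was also −0.34, Cd177 was at −1.22 (adjusted p = 0.135) and the collagenase Mmp8 at −1.07 (adjusted p = 0.173). The list was mixed, with 9 of the 13 negative and 4 positive against sham knees, both in vehicle and in inhibitor knees. Of all genes tested, 51.9% were negative in vehicle and 47.6% in inhibitor knees against sham knees. Every vehicle library lay above every sham library for 2 of the 13 and below for 6. Over all 13823 genes tested this held for 1133 and 1211.

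The surface and signalling genes of mature neutrophils had median log2 fold changes near 0. Of 20 listed, 18 were found by symbol, and all 18 were tested. None passed in any comparison, with medians of −0.19 in inhibitor against vehicle, 0.02 in inhibitor against sham and 0.13 in vehicle against sham knees. C5ar1, the receptor for complement fragment C5a, had log2 fold changes of 1.06 in inhibitor against sham (adjusted p = 0.0743) and 1.11 in vehicle against sham knees (adjusted p = 0.226). The protease Adam8 was at 1.26 in vehicle against sham knees (adjusted p = 0.459). Csf3r, the receptor for G-CSF, was at −0.56 in inhibitor against vehicle knees (adjusted p = 0.493).

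None of 7 granulocyte transcription factors passed in any comparison. Cebpe, the C/EBP factor needed for secondary granule genes, had 59.6 ± 31.3 normalised counts in inhibitor, 39.8 ± 7.73 in vehicle and 81.7 ± 26.2 in sham knees. Its log2 fold change was 0.62 in inhibitor against vehicle knees (adjusted p = 0.506) and −1.03 in vehicle against sham knees (adjusted p = 0.408). Cebpb, a C/EBP factor of inflammation, was at 1.26 in inhibitor against sham (adjusted p = 0.0604) and 1.57 in vehicle against sham knees (adjusted p = 0.12). Runx1 was at 0.47 in inhibitor against sham (adjusted p = 0.334) and 0.71 in vehicle against sham knees (adjusted p = 0.35). Gfi1, a transcriptional repressor that acts within the granulocyte lineage, was at −0.81 in inhibitor against vehicle knees (adjusted p = 0.54).

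Of 10 listed signals that recruit or retain neutrophils, 8 were tested, and 1 rose after injury. In vehicle against sham knees 39 of all 13823 genes tested passed as higher. Cxcl2, a chemokine for neutrophils, rose in vehicle against sham knees, with 252 counts summed in vehicle knees and 2 in sham knees (adjusted p = 0.0356). Scaled by library size the ratio was 125, with a 95% exact binomial interval of 34.2 to 1035 that covers counting error only. Cxcl5, another such chemokine, had 167 counts in vehicle and 1 in sham knees, a ratio of 165 (29.3 to 6564.5, adjusted p = 0.0997). Against sham knees, inhibitor knees had 159 counts of Cxcl2, a ratio of 36.6 (9.98 to 305, adjusted p = 0.0541), and 146 of Cxcl5, a ratio of 67.3 (11.9 to 2676, adjusted p = 0.0716). Between inhibitor and vehicle knees none of the 8 passed, with Cxcl2 at 27.2 ± 20.6 in inhibitor and 125 ± 92.1 in vehicle knees (log2 fold change −2.13, adjusted p = 0.196) and Cxcl12, which retains neutrophils in the marrow, at 1152 ± 190 in inhibitor and 775 ± 168 in vehicle knees (0.57, adjusted p = 0.241).

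None of 6 tested receptors and adaptors for calprotectin passed in any comparison. Cd14, a co-receptor of TLR4, had log2 fold changes of −0.77 in inhibitor against vehicle (adjusted p = 0.583), 2.29 in inhibitor against sham (adjusted p = 0.0903) and 3.06 in vehicle against sham knees (adjusted p = 0.152). Ager, the receptor RAGE, was at −2.26 in inhibitor against vehicle knees (adjusted p = 0.276). Bsg, basigin, was at −0.75 in inhibitor against sham (adjusted p = 0.274) and −0.55 in vehicle against sham knees (adjusted p = 0.733).

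**Figure D4:**
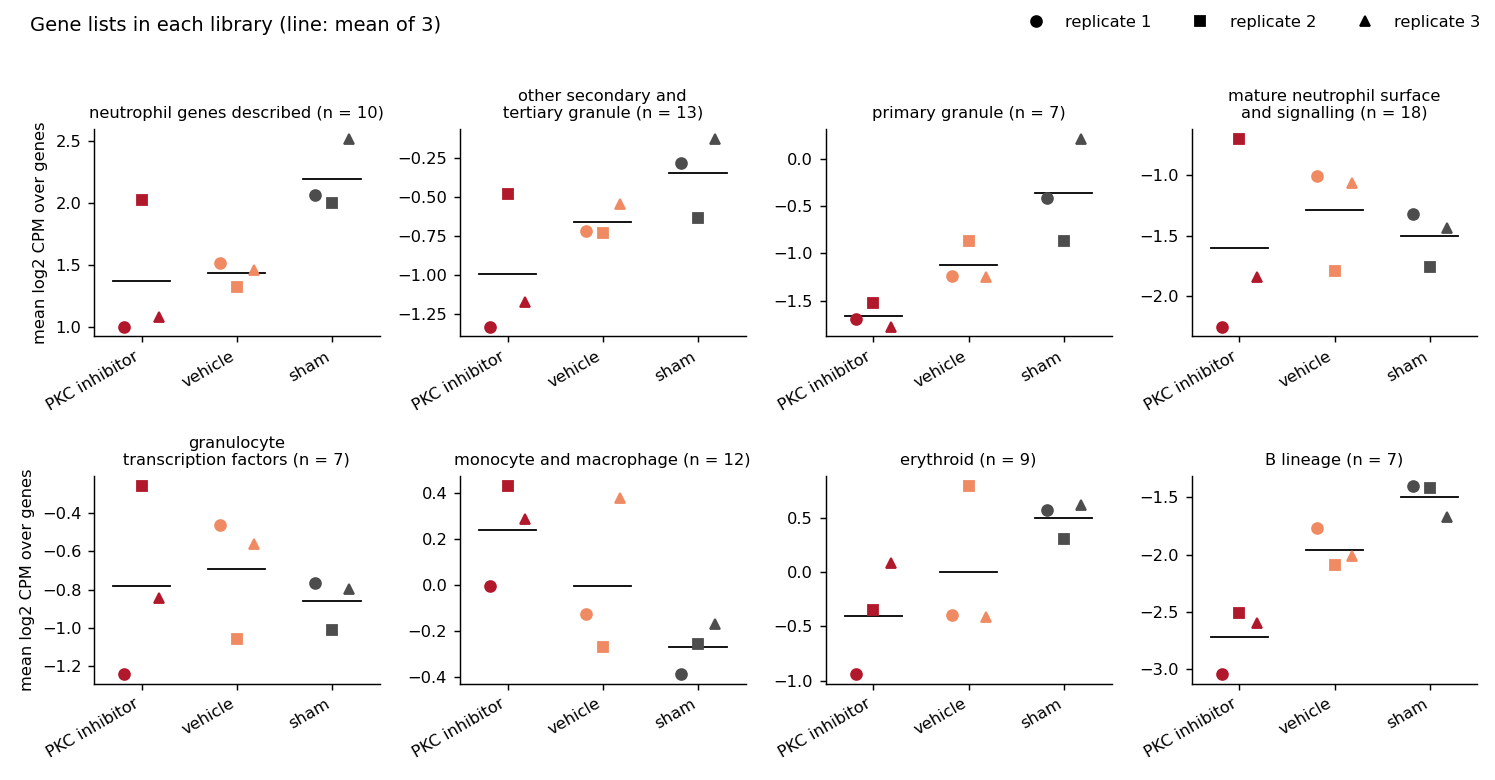
Mean log2 CPM (vertical axes, which do not start at 0 and differ between panels) over the tested genes of 8 lists in every library, with a line at the mean of 3 libraries. The 3 inhibitor libraries lie below all others for primary granule and B lineage genes, while those of the mature neutrophil list lie on both sides of the vehicle and sham libraries.

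Some genes of the B lineage and of megakaryocytes were also lower in inhibitor knees against sham knees, where 2.68% of all genes tested passed as lower. The summed normalised counts of the B lineage list were 284 to 409 in inhibitor, 423 to 492 in vehicle and 568 to 620 in sham libraries, without overlap. In inhibitor against sham knees 3 of its 7 tested genes fell, among them the B cell receptor chain genes Cd79a (−1.66, adjusted p = 0.0334) and Cd79b (−1.68, adjusted p = 0.045). Itga2b, the platelet integrin chain, fell as well (−1.29, adjusted p = 0.00827), as 1 of 7 megakaryocyte genes, of which 5 were negative and 2 positive. None of 9 erythroid genes passed, although all 9 were negative against sham knees in both inhibitor and vehicle knees. Of all genes tested, 47.6% were negative in inhibitor and 51.9% in vehicle knees. The erythroid list summed to 2411 to 4669 in inhibitor, 3722 to 9401 in vehicle and 5218 to 7158 in sham libraries. No listed marker that was found by symbol was at 0 in all libraries, and the part of these lineages in the lower granule genes was not tested.

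Of markers of monocytes and macrophages, also a marrow lineage, 1 passed in inhibitor against sham knees, and some markers of other tissue passed there too. Monocytes and macrophages can share Lcn2, Chil3, S100a8, S100a9 and Itgam with neutrophils. Of 12 listed genes, Cd68 rose in inhibitor against sham knees (1.17, adjusted p = 0.0237). The list summed to 3282 to 4744 in inhibitor, 2735 to 4166 in vehicle and 2860 to 3485 in sham libraries, so the groups overlapped. In inhibitor against sham knees 11 of the 12 were positive, as were 7246 of all 13823 genes tested, with a median log2 fold change of 0.43. The cartilage genes Col2a1 (−2.67, adjusted p = 0.0366), Comp (−1.25, adjusted p = 0.0412) and Col9a1 (−2.37, adjusted p = 0.0111), 3 of 5 tested, and the keratin gene Krt1 (−3.10, adjusted p = 0.02), 1 of 5 keratinocyte genes, fell in that comparison. Of all genes tested, 2.68% passed as lower there. Skeletal muscle genes summed to 3658 to 47570 in inhibitor, 7867 to 12771 in vehicle and 14048 to 35722 in sham libraries, and none of 10 passed. Vehicle and sham sums did not overlap, so a covariate from this list cannot be fully separated from that comparison. With the mean of the muscle list as a covariate, Ltf, Camp and Ngp passed in both inhibitor and vehicle knees against sham knees, with log2 fold changes of −2.19, −1.52 and −1.37 in inhibitor and −1.52, −1.35 and −1.41 in vehicle knees. None of the 5 tested eosinophil, basophil and mast cell genes, 7 fibroblast genes or 6 osteoblast genes passed in any comparison.

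The tested genes whose levels over the 9 libraries were most like the mean of the 10 were Ptpn22, a phosphatase of immune cells (Pearson's r = 0.976), Mlst8, a subunit of the mTOR complexes (0.967), Jdp2, a repressor of AP-1 sites (0.965), Gm49980 (0.954), Padi4, the neutrophil enzyme that citrullinates histones (0.953), Prkab1, a subunit of AMP-activated kinase (0.95), Ttyh3 (0.942) and Hmgn2, a nucleosome-binding protein (0.936). The likeness was measured on log2 CPM of 9 libraries and has no test. Gm49980 had mean normalised counts of 152 in inhibitor, 147 in vehicle and 346 in sham knees, and Padi4 had 81.2, 77.0 and 124 in these groups.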

How the data were processed

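Per the labels' protocols, TRIzol was used to extract total RNA of knee joint tissue, ribosomal RNA was depleted, and paired 100-base reads were made on the DNBSEQ-G400. The authors deposited raw read counts per gene. Reads were counted with featureCounts 2.0.1 on GENCODE M25 exons by gene name, as reverse-stranded pairs, with multi-mapping and overlapping reads counted in full, per the file headers. Genes with a copy or an overlapping gene on the same strand can therefore share counts. HISAT2 and mm10 are named in the submitters' processing notes. The aligner version is not given in the sources used here. Another 2 tables, with 27 columns whose names match no sample label, were not analysed here, nor were the samples of the other sets.

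Genes were filtered with filterByExpr and normalised by TMM, and a quasi-likelihood model was fitted to all 9 libraries with 1 mean per group (edgeR 4.0.16 in R 4.3.3). P-values are two-sided and were adjusted over 13823 genes by Benjamini-Hochberg. Each SE is the size of the log2 fold change over the root of its F statistic. Log2 CPM used a prior count of 2. The steps were tested on simulated data. Intervals for genes with 1 to 3 counts in a group are exact binomial intervals scaled by effective library sizes. No 2 libraries held the same values. DESeq2 1.42.0 and other alternatives were run, 17 in all. Deviations of same-numbered libraries from their group means had correlations of −0.241 to 0.0694. These cannot show whether the numbers pair libraries, and the main fit did not pair them.

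The 10 genes and the 17 gene lists were chosen with earlier results of these data known. The text names the 10, every listed gene that passed, and the 2 genes of each neutrophil-related list with the smallest adjusted p in a comparison, except for some genes that are not reported here. Promoters were matched by symbol to a RefSeq table of GRCm38.p6 (32851 windows).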

Additional observations from a re-analysis of the deposited data

How the results depend on the processing

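Ltf and Camp fell in inhibitor against sham knees under all 17 alternatives and Ngp under 14, and Ltf fell in vehicle against sham knees under 10. In vehicle against sham knees, 42 genes passed, against 155 with DESeq2, 262 with no filter on low counts, 291 with only the 2 groups compared, 301 without inhibitor 1 and 2, 213 with the muscle covariate and 24 with the replicate number as a block. Of the 10 neutrophil genes 1 passed, against 3, 5, 3, 3 and 3 in the first 5 of these (Ltf, Camp and Ngp, and with no filter S100a8 and S100a9 too) and 0 with the block, where Ltf had an adjusted p of 0.052. In inhibitor against vehicle knees, 101 genes passed, against 355, 554, 3, 20 and 313 under the same 5, and 103 with the block. Of the 10, none passed except S100a9 with no filter (1 gene, 0.79, adjusted p = 0.0457). In inhibitor against sham knees, 546 passed, against 885, 1056, 198, 174 and 1210, and 420 with the block, which left 3 of the 10. Whether the numbers pair the libraries is not known. DESeq2 size factors in edgeR changed no call of the 10. With 7SL and U3 left out, 36, 99 and 610 genes passed in vehicle against sham, inhibitor against vehicle and inhibitor against sham knees.

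Leaving out 1 library each, 1 to 234 genes passed in vehicle against sham, 0 to 256 in inhibitor against vehicle and 141 to 841 in inhibitor against sham knees, with 0 to 3, 0 to 0 and 2 to 5 of the 10. Log2 fold changes that turned round were all of genes that did not pass in that comparison in the main fit. Among them S100a9 passed in inhibitor against vehicle knees with no filter. In vehicle against sham knees Itgam was at −0.19 with the muscle covariate and −0.039 to 0.35 with 1 library left out. In inhibitor against vehicle knees without inhibitor 1 and 2, Ngp was at −0.25, S100a9 at −0.083, Retnlg at −0.50 and Ly6g at 0.33. With 1 library left out the ranges there were −0.31 to 0.19 for Ngp, −0.57 to 0.020 for Lcn2, −0.88 to 0.067 for Chil3, −0.27 to 0.92 for Retnlg, −0.44 to 0.20 for Ly6g and −0.67 to 0.087 for Itgam. In inhibitor against sham knees Retnlg was at −0.69 without inhibitor 1 and 2, and with 1 library left out S100a9 ran from −0.62 to 0.11, Retnlg from −0.46 to 0.71 and Itgam from −0.54 to 0.20. Lcn2 with no filter (−0.78, adjusted p = 0.0205), Chil3 without inhibitor 1 and 2 (−1.24, adjusted p = 0.0289) and Ly6g with the muscle covariate (−1.76, adjusted p = 0.0492) passed in inhibitor against sham knees. The cause was not tested. The fit without inhibitor 1 and 2 leaves 1 inhibitor library, which is assumed to vary like the other groups.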
